A study of Mus musculus with 45 samples.

Results

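The change in transcript level that followed GABPA degradation was compared between mouse morulae and the inner cell mass (ICM) of E4.5 blastocysts, by testing for every gene whether the effect of dTAG13 differed between the stages. The comparison used 8 of the 18 RNA-seq libraries of a study that holds 45 samples over all its assays, and its libraries were taken by their labels, 2 for each pairing of stage and treatment. All embryos, DMSO controls included, were Gabpa-dTAG/dTAG, so both Gabpa alleles encode a protein fused to a degron that 1 µM dTAG13 sends to proteolysis while the mRNA is still made. Morulae were exposed from the four-cell stage, 42 h post fertilization (hpf), and sequenced as whole embryos. The ICM was exposed for 16 h from 84 hpf and isolated by immunosurgery, which kills the outer trophectoderm (TE) and leaves the cells that form epiblast (EPI) and primitive endoderm (PrE). The study's methods place the end of this window at the mid-blastocyst, whereas the labels call the samples E4.5 ICM, a name kept here as a label. Stage, cells sampled, start and length of exposure therefore changed together, and their contributions cannot be told apart. The study describes its E4.5 ICM RNA-seq as 2 independent biological replicates. The labels do not say that the 2 libraries of a group came from separate collections, so p-values measure only the spread between these libraries.

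GABPA is the DNA-binding subunit of GABP, an ETS-family transcription factor that works together with a GABPB subunit and recognizes a GGAA core, mostly in promoters close to the transcription start. Its known targets include many housekeeping genes, among them nuclear genes for mitochondrial proteins and for protein synthesis. Between the morula and the late blastocyst the embryo sets aside TE on the outside, and the inner cells then separate into NANOG-positive EPI, the source of the embryo proper, and GATA6-positive PrE, which lines the yolk sac.

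Libraries held 9457933 to 12382705 assigned counts in morulae and 18266057 to 20818291 in the ICM. Replicates scattered more in morulae, where the biological coefficient of variation was 0.213, than in the ICM, where it was 0.0237, so a change of a given size was harder to call in morulae. The ICM libraries carried their lineage markers: the summed level of 26 PrE markers was 2769 and 2840 TPM (a level per gene length, scaled to the same total in every library) in the 2 ICM DMSO libraries against 276 and 289 in morula DMSO libraries. The 30 naive pluripotency and EPI markers summed to 25318 and 25574 TPM in ICM DMSO libraries and to 17282 and 19349 TPM in morula DMSO libraries. Of the TE transcripts, Krt7 averaged 0.06 FPKM (fragments scaled to gene length and library total) in the ICM controls, Cdx2 0.485 and Gata3 1.68. As a list, 21 TE markers summed to 1533 and 1551 TPM there, against 1562 and 1843 TPM in morula DMSO libraries.

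The effect of degradation differed between the stages for 2470 of 16799 genes tested (14.7%). The measure used for this, called the interaction below, is the log2 fold change (dTAG13 over DMSO) in morulae minus that in the ICM, fitted in edgeR over the 8 libraries. A gene was called at an adjusted p under 0.05, a difference of at least 2-fold and a mean of at least 1 FPKM in a group of each stage. The interaction was positive, meaning that the gene fell further or rose less in the ICM, for 1293 genes (7.7% of those tested), and negative for 1177 (7.01%). Leaving out ICM dTAG13 replicate 2 reduced the positive calls to 856, and leaving out ICM DMSO replicate 1 or replicate 2 reduced the negative calls to 757 or 771. Reads reflect RNA per library, so fewer cells of a type and less RNA per cell cannot be told apart in any of these values.

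Nearly all of the differences came from genes that changed in the ICM. Tested within each stage at an adjusted p under 0.05 and with no fold threshold, 6098 genes fell (38.5% of 15840) and 6076 rose (38.4%) in the ICM. In morulae 28 genes fell (0.205% of 13667) and 22 rose (0.161%), and 1854 genes had an unadjusted p under 0.05 in edgeR. Of the 1293 positive genes, 1257 (97.2%) fell in the ICM and passed no test in morulae. Of the 1177 negative genes, 1135 (96.4%) rose in the ICM and passed no test in morulae. Medians of the log2 fold change over the positive genes were −1.63 in the ICM and 0.07 in morulae, those over the negative genes were 1.35 and −0.27, whereas the medians over all genes tested were 0.01 and −0.02.

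**Figure D1:**
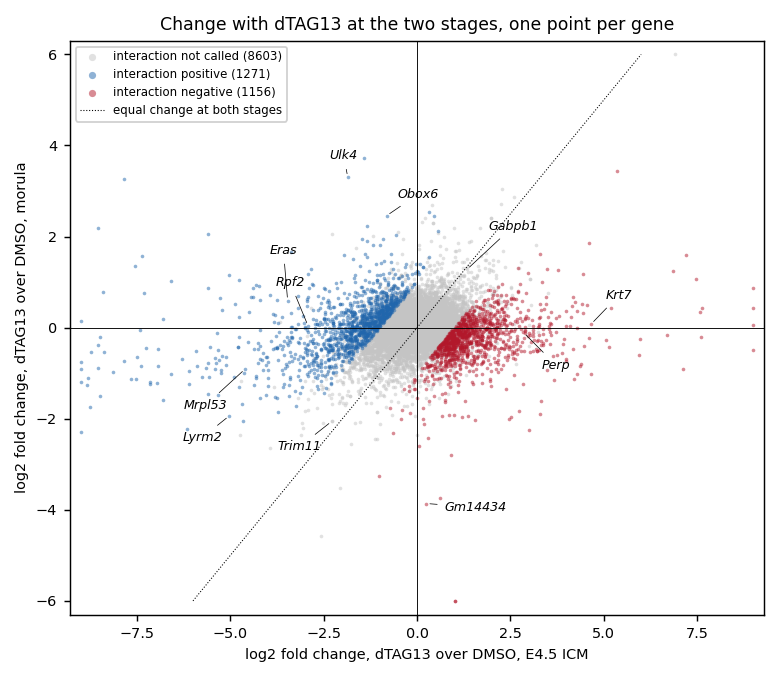
Log2 fold change with dTAG13 in the E4.5 ICM (x axis) against that in morulae (y axis) for 11030 genes fitted at both stages with a mean of at least 1 FPKM in a group of each, colored by the interaction, with the dotted line marking equal change and 12 points drawn at the edges of the axes. The cloud is wide along the ICM axis (SD across genes 1.22) and narrow along the morula axis (SD 0.52), so colored genes lie to the left and right rather than above and below.

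The absence of a call in morulae was resolved for part of the ICM-responsive genes only. Among 1643 genes that were at least 2-fold lower in the ICM, past its test and expressed at both stages, the interaction showed a smaller fall or a rise in morulae for 1004 (61.1%). For 67 (4.1%) the 95% interval of the interaction lay within 2-fold either way, for 1 the fall was larger in morulae, and for 571 the data could not place the gene in any class. Among 1306 genes at least 2-fold higher in the ICM, 830 (63.6%) differed from morulae, 19 (1.5%) had an interval within 2-fold and 457 were unresolved.

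In DMSO-treated embryos the positive genes were mostly more abundant in the ICM than in morulae, and the negative genes mostly less abundant. On the log2(FPKM + 0.1) scale the ICM level of the positive genes exceeded the morula level by a median of 0.67, with 942 of 1293 (72.9%) higher in the ICM, compared with a median of 0.17 and 56.0% over 11326 expressed genes. With dTAG13 the same 1293 genes had a median difference of −0.85, and 25.9% were higher in the ICM. The negative genes went from a median difference of −1.18 (20.3% higher in the ICM) with DMSO to 0.61 (67.7%) with dTAG13. Apart from the scale used, the interaction equals the DMSO difference minus the dTAG13 difference. Choosing positive genes therefore favors a high DMSO and a low dTAG13 difference, and choosing negative genes the reverse. The shift is thus largely set by the choice of genes. These levels come from the libraries that gave the interaction and are given as a description.

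No GABP subunit gene was called different in its response between the stages. Gabpa mRNA read 8.79 and 10.2 FPKM in morula DMSO libraries, 16.6 and 15.9 in morula dTAG13 libraries, 11.03 and 12.0 in ICM DMSO libraries, and 30.4 and 29.9 in ICM dTAG13 libraries. Every dTAG13 library thus lay above the DMSO libraries of its stage, and this mRNA cannot check the loss of the protein because dTAG13 acts on the protein. The interaction of Gabpa was −0.23 (95% interval −0.57 to 0.11). Gabpb1, which encodes the main transactivating partner, rose at both stages, by 1.28 ± 0.22 (SE) on the log2 scale in morulae and by 1.33 ± 0.04 in the ICM, with an interaction of −0.07 (−0.57 to 0.42). Gabpb2, a second partner, had an interaction of −0.31 (−0.84 to 0.23).

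Of 78 mitochondrial ribosomal protein genes, 60 fell in the ICM, where 38.5% of all genes tested did so. None fell in morulae, where 0.205% of all genes tested did so. The interaction was called positive for 9 (11.5%, against 7.7% of all genes tested) and negative for none. Their median log2 fold change was −0.45 in the ICM and 0.03 in morulae, and their median interaction was 0.48, against −0.01 over all genes tested. Of 18 genes for transcription and replication of mitochondrial DNA, 6 were positive (33.3%; Primpol, Mterf1a, Mterf2, Tefm, Polg2 and Ssbp1) and the median was 0.76. All gene lists were set with earlier results of these data known, and their counts are descriptions.

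Mrpl53, a protein of the large mitochondrial ribosomal subunit, had the largest positive interaction of its list. Its level was 243.95 and 261.73 FPKM in morula DMSO libraries, 109 and 149 in morula dTAG13 libraries, 163 and 153 in ICM DMSO libraries, and 5.83 and 7.53 in ICM dTAG13 libraries. The treated libraries lay below the controls at both stages, but the ICM libraries were separated far more widely, and the interaction was 3.68 ± 0.26 (SE, adjusted p = 2.97e-05). In this unstranded assay 88.0% of its exonic bases overlap other genes, so its reads cannot be assigned to it alone. Mrps21, a protein of the small subunit chosen after its values were seen, lay at 827 and 749 FPKM in morula DMSO, 330 and 437 in morula dTAG13, 422 and 395 in ICM DMSO, and 17.5 and 15.4 in ICM dTAG13, with an interaction of 3.62 ± 0.24.

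Genes called among mitochondrial translation factors and tRNA synthetases lay in both directions. Rars2, the mitochondrial arginyl-tRNA synthetase (chr4:34614957-34660167, plus strand, GRCm38), read 20.2 and 35.0 FPKM in morula DMSO, 30.75 and 27.98 in morula dTAG13, 77.5 and 72.7 in ICM DMSO, and 13.5 and 13.6 in ICM dTAG13. The morula groups overlapped and the ICM groups did not, and the interaction was 2.66 ± 0.32 (adjusted p = 0.000417). Aars2, the mitochondrial alanyl-tRNA synthetase, went the other way, from a mean of 2.44 to 4.35 FPKM in the ICM and from 2.16 to 0.93 in morulae, with an interaction of −1.77 ± 0.32. Of the 26 genes of this list 2 were positive (Rars2 and Cars2), 2 were negative (Aars2 and Lars2), each 7.7%, close to the shares over all genes tested, and the median was 0.09.

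Of 37 complex I subunits 1 (Ndufa13) was called and of 34 subunits of complexes III, IV and V 1 (Atp5h), both positive. These shares of 2.7% and 2.9% were below the 7.7% of all genes tested. The list medians were 0.2 and 0.26. Atp5h, a subunit of the ATP synthase stalk, stayed between 1467 and 1657 FPKM in all morula libraries and went from 1271 and 1274 FPKM in ICM DMSO to 558 and 578 in ICM dTAG13, for an interaction of 1.18 ± 0.15 (adjusted p = 0.000538). Ndufa13 had an interaction of 1.84 ± 0.29, and 30.0% of its exonic bases overlap another gene. The 13 protein-coding transcripts of the mitochondrial genome moved in the opposite direction, with a median interaction of −0.77. Of these transcripts 11 rose in the ICM, where 38.4% of all genes tested did so. All 13 summed to 51542 and 50106 TPM in ICM DMSO and 73567 and 72328 in ICM dTAG13. In morulae the sums were 54939 and 56321 with DMSO and 46485 and 53048 with dTAG13. The 2 called among them (15.4% negative, against 7.01% of all genes tested) were mt-Nd3 and mt-Nd6, subunits of complex I. Their interactions were −1.52 and −1.05, and 98.1% of the 31-base words of mt-Nd3 occur in other genes too.

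Of 113 ribosome biogenesis genes 25 were positive (22.1%, against 7.7% of all genes tested) and none was negative, with a median interaction of 0.51. In the ICM 92 fell, where 38.5% of all genes tested did so. None fell in morulae, where 0.205% of all genes tested did so. Rpf2, which brings the 5S particle into the large subunit precursor (chr10:40223246-40247036, minus strand), read 141 and 156 FPKM in morula DMSO, 117 and 177 in morula dTAG13, 127 and 128 in ICM DMSO, and 20.4 and 20.2 in ICM dTAG13. The treated morula libraries fell on either side of their controls, while both treated ICM libraries lay far below theirs, and the interaction was 2.94 ± 0.28 (adjusted p = 0.000127). Its relative Rpf1 and the nucleolar protein Nifk had interactions of 2.81 ± 0.20 and 2.66 ± 0.24. Of 76 cytosolic ribosomal protein genes 46 fell and 19 rose in the ICM, where 38.5% and 38.4% of all genes tested did so. Rps27, Rpl37 and Rps14 were called (3.9%, against 7.7% of all genes tested), all positive. The list median was −0.03, a value whose sign changed between alternative settings.

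The proteasome, the protease that clears ubiquitinated proteins, had a median interaction of 0.6. Of its 37 subunit genes 6 were called, all positive (16.2%, against 7.7% of all genes tested). Psmb4, a subunit of its core that was chosen after its values were seen, lay at 678 and 579 FPKM in morula DMSO, 404 and 439 in morula dTAG13, 407 and 401 in ICM DMSO, and 31.9 and 31.5 in ICM dTAG13. Treated libraries were lower at both stages without overlap, and the difference between the stages was 3.26 ± 0.14 (adjusted p = 2.51e-06). Psma8, the core subunit of the germ-cell proteasome, had no count in either ICM dTAG13 library and was at least 59.6-fold lower there than in ICM DMSO, while its morula levels stayed between 0.46 and 1.54 FPKM.

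Of 42 DNA replication genes 8 were positive (19.0%, against 7.7% of all genes tested) and none was negative, with a median of 0.75. The positive genes were Cdc45, Rfc2, Orc3, Rpa2, Rfc3, Gins4, Rpa3 and Gins2. Cdc45, part of the replicative helicase, read 14.9 and 22.3 FPKM in morula DMSO, 26.1 and 24.4 in morula dTAG13, 46.8 and 47.0 in ICM DMSO, and 22.6 and 19.0 in ICM dTAG13. It fell in the ICM, and the treated morula libraries were the higher ones, by 0.54 ± 0.24 on the log2 scale, a change that missed the morula test. The interaction was 1.80 ± 0.26 (adjusted p = 0.00108).

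Among 18 Fanconi anaemia genes, which repair DNA crosslinks, 4 were positive (22.2%, against 7.7% of all genes tested): Faap20, Fanci, Fance and Brip1. Fancf and Slx4 were negative (11.1%, against 7.01%), and the list median was 0.54. Faap20, a partner of the Fanconi core complex (chr4:155249802-155256687, plus strand), had the largest called interaction among list members without a group at 0, at 7.11 ± 0.55 (adjusted p = 2.51e-06). It read 41.5 and 42.9 FPKM in morula DMSO, 18.9 and 21.4 in morula dTAG13, 33.5 and 33.6 in ICM DMSO, and 0.12 in each ICM dTAG13 library. Both treated groups lay below their controls, but treated morulae kept a transcript that was almost absent from the treated ICM. Ruvbl2, an ATPase of the TIP60 acetyltransferase complex, had an interaction of 1.53 ± 0.18. Of 18 complex members 3 were called (16.7%, against 7.7% of all genes tested), all positive (Ruvbl2, Mrgbp and Meaf6), with a median of 0.33. Tet1, which oxidizes methylated cytosine, was the 1 gene called of 9 DNA methylation enzymes (11.1%), at 1.14 ± 0.18. None of 18 glycolysis genes was called in edgeR, against 14.7% of all genes tested. The medians of these lists were −0.06 and 0.05.

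Promoters of positive genes that tested lower in the ICM alone held the ETS-type sequence CCGGAAG more often than those of all expressed genes. It was searched on both strands, with overlapping matches counted separately, in RefSeq promoters from 250 bases before to 50 bases after the start. It occurred in 354 of 941 promoters (37.6%) of positive genes that tested lower in the ICM alone. The share was 79 of 775 (10.2%) for negative genes that tested higher in the ICM alone. For all genes expressed at both stages it was 1758 of 8185 (21.5%), and for all 32851 promoters it was 8.9%. Passing the test in the ICM alone does not mean that a gene was unchanged in morulae, where replicates scattered more. Promoters of 5 of 16 genes that fell at both stages (31.2%) held it. A match is a description of the sequence and not evidence of binding.

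The promoters below are printed to show where the sequence lies for genes with values in the text, Mrpl53, Rpf2, Rars2 and Atp5h, whose response differed between the stages, and Sfmbt2, which fell at both. They run 5′ to 3′ on the strand of the gene, from RefSeq on GRCm38.p6, and capitals mark CCGGAAG or its reverse complement CTTCCGG. The windows are chr6:83108858-83109107 (plus) for Mrpl53, chr10:40247038-40247289 (minus) for Rpf2, chr4:34614707-34614959 (plus) for Rars2, chr11:115419920-115420169 (minus) for Atp5h and chr2:10370201-10370450 (plus) for Sfmbt2. A further match of Rpf2 begins 18 bases after the start, outside the printed window.
Mrpl53: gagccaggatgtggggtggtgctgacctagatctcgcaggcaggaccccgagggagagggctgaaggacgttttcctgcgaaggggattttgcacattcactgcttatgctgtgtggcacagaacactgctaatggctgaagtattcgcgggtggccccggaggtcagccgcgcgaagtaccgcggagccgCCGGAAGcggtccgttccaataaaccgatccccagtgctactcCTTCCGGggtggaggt
Rpf2: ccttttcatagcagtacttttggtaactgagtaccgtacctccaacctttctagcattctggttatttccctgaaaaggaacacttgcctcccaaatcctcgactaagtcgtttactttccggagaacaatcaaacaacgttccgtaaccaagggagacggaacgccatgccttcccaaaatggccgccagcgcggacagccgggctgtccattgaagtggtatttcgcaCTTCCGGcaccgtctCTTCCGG
Rars2: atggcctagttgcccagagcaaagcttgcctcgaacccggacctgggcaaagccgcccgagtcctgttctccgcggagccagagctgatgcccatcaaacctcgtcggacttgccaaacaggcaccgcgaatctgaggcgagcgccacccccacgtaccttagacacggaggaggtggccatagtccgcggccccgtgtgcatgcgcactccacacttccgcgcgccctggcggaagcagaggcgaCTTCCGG
Atp5h: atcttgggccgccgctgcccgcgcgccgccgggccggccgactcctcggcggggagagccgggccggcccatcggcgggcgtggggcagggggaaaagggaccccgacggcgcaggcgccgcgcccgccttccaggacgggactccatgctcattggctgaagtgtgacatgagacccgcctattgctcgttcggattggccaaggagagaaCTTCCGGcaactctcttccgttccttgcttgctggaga
Sfmbt2: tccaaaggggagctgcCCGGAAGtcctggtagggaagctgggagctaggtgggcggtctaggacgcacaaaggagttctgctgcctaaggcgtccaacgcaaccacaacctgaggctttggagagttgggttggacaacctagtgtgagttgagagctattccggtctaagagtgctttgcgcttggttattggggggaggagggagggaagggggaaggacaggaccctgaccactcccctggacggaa
The matches of Mrpl53, Rpf2, Rars2 and Atp5h begin 4 to 59 bases upstream of the start, and that of Sfmbt2 begins 234 bases upstream.

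Genes that fell most in the ICM leaned downward in morulae as well. For 108 genes with an ICM log2 fold change below −4, the median in morulae was −0.71 and 77.8% were below 0. For 396 genes between −4 and −2 in the ICM the morula median was −0.45, and for 1090 genes between −2 and −1 it was −0.21. Genes that rose in the ICM showed no such lean, with morula medians of 0.02, 0.03 and 0.08 for ICM changes of 1 to 2, 2 to 4 and above 4. In the lowest bin 27 of 29 genes whose promoter held the sequence (93.1%) were below 0 in morulae, with a median of −0.88, compared with 33 of 44 without it (median −0.47). Over 11030 genes the changes at the stages had Pearson's r = 0.2 and Spearman's rho = 0.17 across genes, which are not independent replicates, share the libraries of each stage and share no library between the stages.

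**Figure D2:**
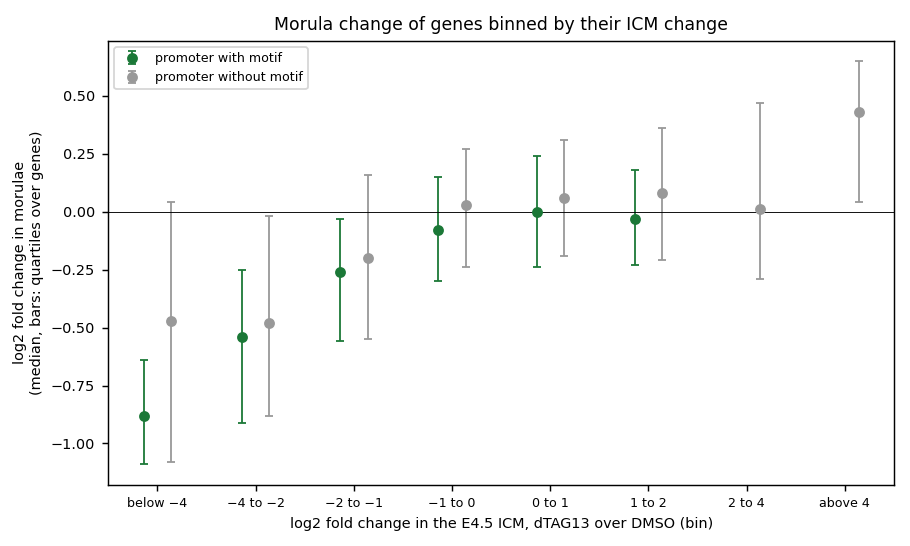
Median log2 fold change in morulae (points; bars are quartiles over genes) of genes binned by their log2 fold change in the E4.5 ICM, for promoters with and without CCGGAAG; bins with fewer than 20 genes are not drawn. With the sequence the median sits lowest, at −0.88, for the genes that fell most in the ICM. Without it the medians are −0.47 in that bin and −0.48 in the bin from −4 to −2. In the drawn bins above 0 all medians are at or above −0.03.

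Many lineage genes changed in the ICM, and their list medians in morulae were close to those of all genes or, for PrE markers, lower (−0.31). Of 30 naive pluripotency and EPI markers, 10 were positive (33.3%, against 7.7% of all genes tested) and 1 negative (3.3%, against 7.01%). In the ICM 26 fell, where 38.5% of all genes tested did so. None passed the test in morulae, where 0.205% of all genes tested fell and 0.161% rose. Medians were −1.25 in the ICM and −0.01 in morulae. Eras, a RAS-like GTPase of embryonic stem cells, read 0.65 and 0.88 FPKM in morula DMSO, 1.16 and 1.11 in morula dTAG13, 25.5 and 28.3 in ICM DMSO, and 2.6 and 2.44 in ICM dTAG13. It was nearly silent in morulae and fell in the ICM, with an interaction of 4.04 ± 0.44 (adjusted p = 0.000251). Fgf4, the EPI signal that acts on PrE, and the ETS factor Etv5 were also low in morulae (means of 2.31 and 4.23 FPKM with DMSO) and fell in the ICM, with interactions of 2.07 ± 0.33 and 1.96 ± 0.22.

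Nanog, a core EPI transcription factor, was expressed at similar levels at both stages. It read 121 and 91.0 FPKM in morula DMSO, 90.0 and 84.9 in morula dTAG13, 86.0 and 83.3 in ICM DMSO, and 35.2 and 33.7 in ICM dTAG13. The morula groups were close and the ICM groups far apart, and the interaction was 1.16 ± 0.18 (adjusted p = 0.00183). Dppa4, a chromatin protein of early embryos, had means of 268 and 281 FPKM in morulae and of 196 and 56.1 in the ICM, with DMSO and dTAG13, and an interaction of 1.97 ± 0.17. The list median was 1.01. The interactions of Pou5f1 (0.61), Klf4 (0.65), Sox2 (0.81) and Tfcp2l1 (0.08) were not called. Dppa3, a maternal factor that persists in the germ line, was the 1 negative member: it read 9017 and 11380 FPKM in morula DMSO and 11467 and 13634 in morula dTAG13, and it rose from 1539 and 1524 in ICM DMSO to 5846 and 5780 in ICM dTAG13, for an interaction of −1.52 ± 0.19.

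TE markers rose in the ICM and had a median change of 0.07 in morulae. Of 21 markers 12 were negative (57.1%, against 7.01% of all genes tested) and none was positive, against 7.7% of all genes tested. In the ICM 19 rose, where 38.4% of all genes tested did so, and only Aqp3 fell. None passed the edgeR test in morulae, where 0.205% of all genes tested fell and 0.161% rose. The median interaction was −2.03. Krt18, a keratin of the outer epithelium, read 202 and 227 FPKM in morula DMSO, 257 and 267 in morula dTAG13, 24.9 and 26.8 in ICM DMSO, and 524 and 526 in ICM dTAG13. The treated ICM thus exceeded the whole morula for this transcript, and the interaction was −3.95 ± 0.15 (adjusted p = 2.17e-06). Cdx2, the TE-defining homeobox factor, stayed between 5.2 and 5.78 FPKM in all morula libraries and rose from 0.32 and 0.65 in ICM DMSO to 1.97 and 2.81 in ICM dTAG13, which left it below every morula library (interaction −2.20 ± 0.45). Krt7, at 4.15 to 4.51 FPKM in morulae, rose from 0.07 and 0.05 to 1.84 and 2.2 in the ICM (interaction −4.59 ± 0.44), and Gata3 had an interaction of −3.15 ± 0.30.

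The summed level of the 21 TE markers was 1533 and 1551 TPM in ICM DMSO and 3955 and 3931 in ICM dTAG13, compared with 1562 and 1843 in morula DMSO and 2186 and 2058 in morula dTAG13. None of the 21 was at 0 in any group. Immunosurgery is meant to remove the cells these markers define, and the share of TE cells left in the treated ICM, and its part in the differences between the stages, was not tested.

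PrE markers were less uniform. Of 26 markers 10 were negative (38.5%, against 7.01% of all genes tested) and 1 positive (3.8%, against 7.7%). In the ICM 18 rose and 4 fell, where 38.4% and 38.5% of all genes tested did so. The median interaction was −1.01. Gata6 had means of 103 and 77.0 FPKM in morulae with DMSO and dTAG13 and rose in the ICM from 42.9 to 89.1 FPKM, with an interaction of −1.27 ± 0.14, and Dab2, an endocytic adaptor, rose from 150 to 490 FPKM in the ICM for the same interaction of −1.27 ± 0.14. Lrp2, an endocytic receptor, stayed between 21.4 and 26.2 FPKM in morulae and rose from 2.53 and 2.52 to 13.6 and 13.5 in the ICM, with an interaction of −2.09 ± 0.17. The basement membrane genes Col4a1, Col4a2, Lamb1 and Lamc1 were also negative, and Nid2 was the 1 positive member at 1.03 ± 0.25, a call lost under 11 of 23 alternative settings. Sox17, Foxa2 and Ttr, markers of committed PrE, were at or below 0.495 FPKM in every morula group mean, so no difference in response could be read for them. PrE markers summed to 4939 and 4920 TPM in ICM dTAG13, above the controls, and in morulae to 321 and 302.

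The longer lineage lists that the study took from other data sets had medians of the same signs as the marker lists. Of 186 EPI genes 62 were positive (33.3%) and 2 negative (1.1%), with a median interaction of 0.92. Of 252 PrE genes 4 were positive (1.6%) and 45 negative (17.9%), with a median of −0.41. Of 976 TE genes 28 were positive (2.9%) and 219 negative (22.4%), with a median of −0.57. Of 806 ICM genes 154 were positive (19.1%) and 37 negative (4.6%), with a median of 0.45. Over all genes tested 7.7% were positive and 7.01% negative. The morula medians of these 4 lists lay between 0.03 and 0.12.

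**Figure D3:**
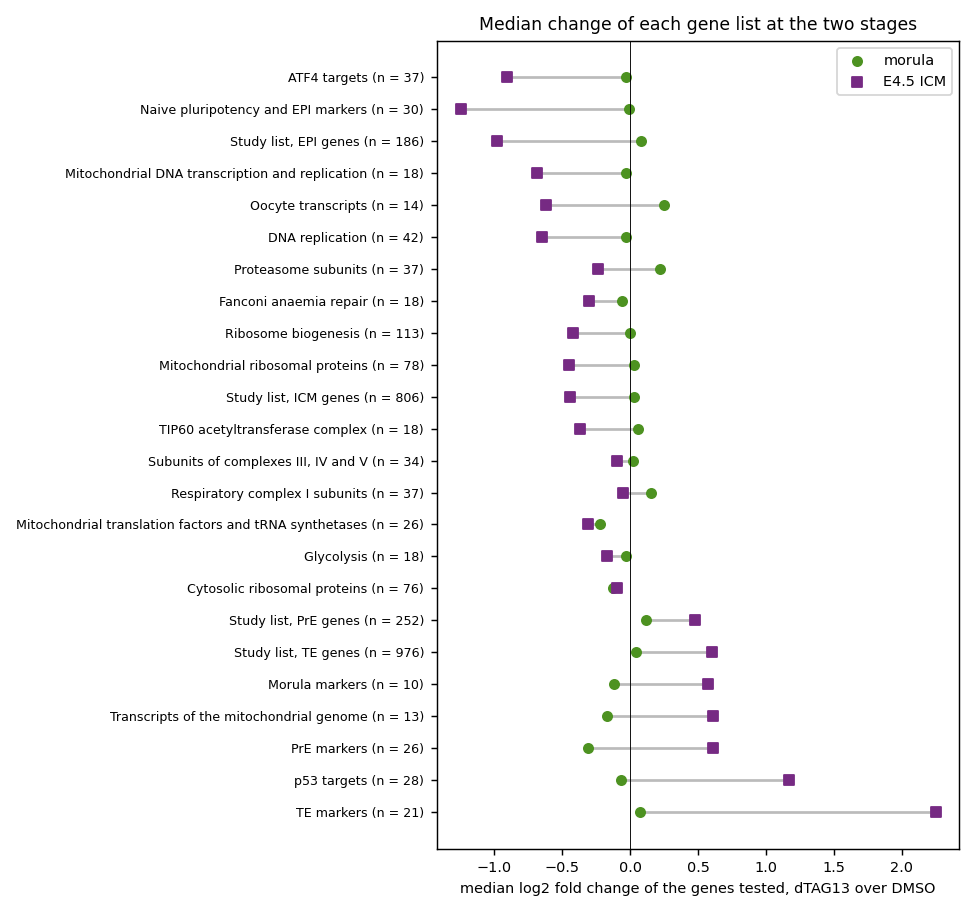
Median log2 fold change with dTAG13 of the genes tested in 24 lists, for morulae (circles) and the E4.5 ICM (squares), with the number of genes tested after each name. Lists with fewer than 10 genes tested or 5 expressed are not drawn, among them the two-cell genes, whose ICM median was −2.45. The morula medians drawn lie between −0.31 and 0.25, while the ICM medians drawn run from −1.25 for naive pluripotency and EPI markers to 2.25 for TE markers.

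Genes of the p53 and ATF4 pathways separated the stages in opposite directions. Of 28 p53 targets, which arrest the cycle or promote cell death, 17 were negative (60.7%, against 7.01% of all genes tested). There was 1 positive target (3.6%, against 7.7%), and 21 targets rose in the ICM, where 38.4% of all genes tested did so. The medians were 1.17 in the ICM, −0.07 in morulae and −1.56 for the interaction. Perp, a desmosomal effector of p53 that is also made by epithelia, read 123 and 117 FPKM in morula DMSO, 107 and 106 in morula dTAG13, 4.33 and 4.34 in ICM DMSO, and 33.8 and 31.4 in ICM dTAG13. The treated morulae lay just below their controls and the treated ICM well above its own, with an interaction of −2.97 ± 0.15 (adjusted p = 4.89e-06). Cdkn1a, the p21 cell cycle inhibitor and a gene chosen after its values were seen, lay at 322 and 267 FPKM in morula DMSO, 287 and 318 in morula dTAG13, 40.2 and 41.7 in ICM DMSO, and 182 and 185 in ICM dTAG13. Its morula groups overlapped, its control level was higher in morulae than in the treated ICM, and the interaction was −2.05 ± 0.18. Ddb2, a DNA damage sensor, was the 1 positive p53 target (1.40 ± 0.32), and Bax, which perforates mitochondria in apoptosis, showed −0.01.

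Of 37 ATF4 targets, which supply amino acids and serve the integrated stress response, 12 were positive (32.4%, against 7.7% of all genes tested). There were 2 negative targets (5.4%, against 7.01%), and 32 targets fell in the ICM, where 38.5% of all genes tested did so. The medians were −0.91 in the ICM, −0.03 in morulae and 1.06 for the interaction. Eif4ebp1, a repressor of cap-dependent translation chosen after its values were seen, stayed between 865 and 964 FPKM in morulae and fell from 1622 and 1618 to 371 and 370 in the ICM, with an interaction of 2.25 ± 0.14 (adjusted p = 1.73e-05). Asns, asparagine synthetase, also chosen so, was scarce in morulae (means of 9.17 and 8.21 FPKM with DMSO and dTAG13) and fell from 607 to 186 in the ICM, for an interaction of 1.60. Cebpb, a transcription factor of the same response, was negative at −3.73 ± 0.65, rising in the ICM from 1.3 and 0.86 to 10.95 and 12.68 FPKM while morula libraries held 0.67 to 2.17. Ddit4 was the other negative member, at −1.67.

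A few genes moved in opposite directions at the stages, past the test in each. Of the 22 genes that rose in morulae, 6 fell in the ICM, where 38.5% of all genes tested fell. Of these 6, 5 had a called interaction: Ulk4, Nupr1, Obox6, Gm5612 and Gm12940. Nupr1, a stress-inducible chromatin protein, read 6.07 and 4.44 FPKM in morula DMSO, 17.6 and 18.8 in morula dTAG13, 547 and 597 in ICM DMSO, and 210 and 211 in ICM dTAG13. The groups did not overlap at either stage, and the interaction was 3.41 ± 0.21 (adjusted p = 1.44e-05). Obox6, a homeobox gene of cleavage-stage embryos, rose in morulae from 23.4 and 33.2 to 173 and 126 FPKM, a change of 2.46 ± 0.23 on the log2 scale, and went from 2.84 and 2.74 to 1.78 and 1.53 in the ICM. Its interaction was 3.26 ± 0.33 (adjusted p = 0.000167).

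Ulk4, a kinase-like protein, went from 1.3 and 0.79 to 7.53 and 25.6 FPKM in morulae and from 20.0 and 27.3 to 7.06 and 4.27 in the ICM, for an interaction of 5.15 ± 0.80. Its treated morula libraries differed widely from each other, and both exceeded the controls. Of the 28 genes that fell in morulae, 5 rose in the ICM, where 38.4% of all genes tested rose. Among these 5, Gm14434 was the 1 protein-coding gene, and all of its 31-base words occur in other genes. Of the other 4, Gm13841 and Gm8210 carry identical values, and Rpsa-ps10 and Rpph1 complete the group, so read sharing limits what can be assigned to these loci.

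**Figure D4:**
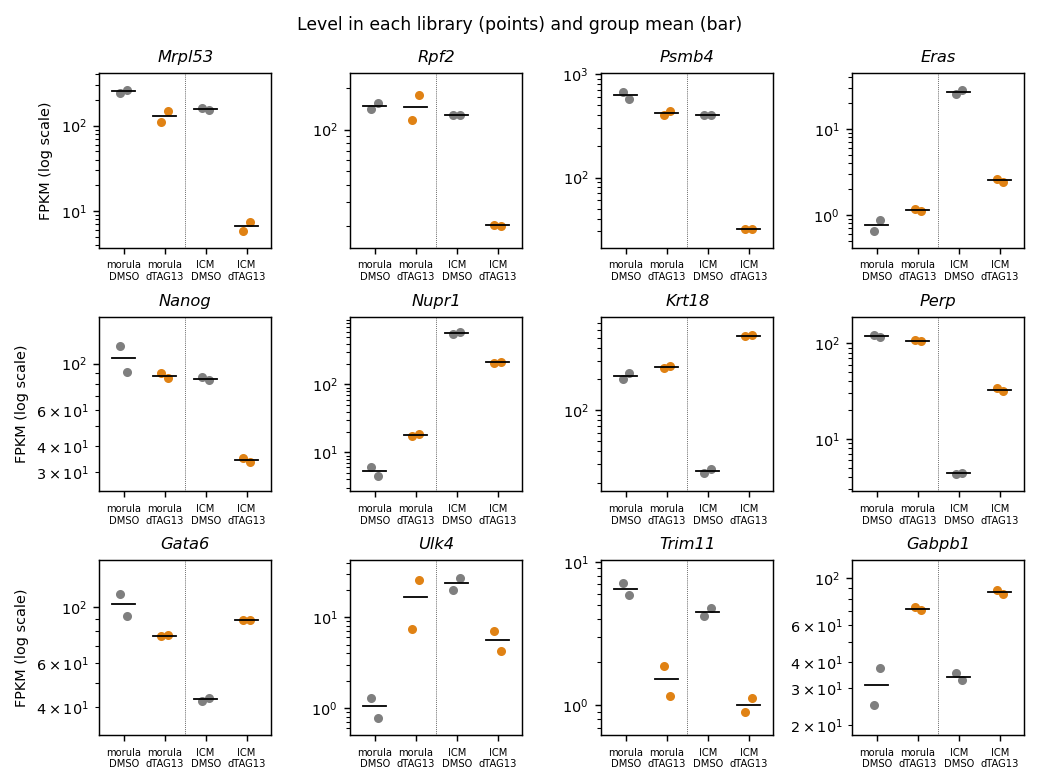
FPKM on a log scale in each library (points) with the group mean (bars) for 12 genes, with morulae left and the E4.5 ICM right of the dotted line. Mrpl53, Rpf2, Psmb4, Eras and Nanog drop in the treated ICM, Krt18, Perp and Gata6 rise there, Nupr1 and Ulk4 turn direction between the stages, and Trim11 (down) and Gabpb1 (up) move in 1 direction at both.

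Of the 28 genes that fell in morulae, 20 also fell in the ICM, where 38.5% of all genes tested fell, and of the 22 that rose in morulae, 9 also rose in the ICM, where 38.4% rose. For 7 of the 20 and 3 of the 9, the 95% interval of the interaction stayed within 2-fold, so the responses of these genes differed by less than that bound. Among the 3, Gm48419 and Gm48423 carry identical values and count as 1 signal. Sfmbt2, a polycomb-group protein (chr2:10370510-10595253, plus strand), went from 7.46 and 8.39 to 2.26 and 2.02 FPKM in morulae and from 5.52 and 6.74 to 0.89 and 0.65 in the ICM, without overlap at either stage. Its interaction of 0.42, fitted on counts and not on these FPKM values, had an interval of −0.09 to 0.93. Over the alternative settings it ran from 0.29 to 1.07, so the 2-fold bound did not hold in all of them. Rabep2, an endosomal trafficking protein, fell by 2.10 on the log2 scale in morulae and by 1.66 in the ICM, with an interaction of −0.45 (−1.08 to 0.17).

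Trim11, a ubiquitin ligase, read 7.1 and 5.87 FPKM in morula DMSO, 1.88 and 1.17 in morula dTAG13, 4.21 and 4.78 in ICM DMSO, and 0.9 and 1.12 in ICM dTAG13. The groups were apart at both stages, and the interaction was 0.21 (−0.66 to 1.08). Uhrf1, which directs maintenance of DNA methylation and was chosen after its values were seen, fell by 1.3 in morulae and by 1.23 in the ICM on the log2 scale, with an interaction of −0.09 (−0.46 to 0.29).

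For 6 of the 20 the fall differed in size and was called: Dlst, Eaf1, Lyrm2, 0610030E20Rik and Gstp1 fell further in the ICM, and Nbdy fell further in morulae. Lyrm2, a small mitochondrial assembly protein, went from 135 and 127 to 22.2 and 40.8 FPKM in morulae and from 62.5 and 58.5 to 1.44 and 1.96 in the ICM. It was separated from its controls at both stages, and the interaction was 3.07 ± 0.41 (adjusted p = 0.000489). Of the genes that rose at both stages, Arg2, a mitochondrial arginase, rose by 1.85 in morulae and by 4.60 in the ICM on the log2 scale (interaction −2.76 ± 0.44), with 28.1% of its exonic bases shared with another gene. Tnfrsf9, a receptor of the TNF family, had an interaction of −1.90 ± 0.64, a call lost under 16 of 23 alternative settings.

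Among protein-coding genes with a mean of at least 10 FPKM in a group, the 5 with the largest fitted positive interaction were nearly lost from the treated ICM and still present in treated morulae. A call needs a mean of at least 1 FPKM in a morula group, and the ranking favors treated ICM levels near 0. This pattern therefore follows largely from how the genes were chosen. The order among genes with a group at 0 rests on fits that are not bounded by the data. Slc50a1, a sugar transporter, read 17.2 and 17.4 FPKM in ICM DMSO and had no count in either ICM dTAG13 library, at least 90.2-fold lower when a floor of 3 counts per library is used, while morulae held 4.82 and 5.6 FPKM with DMSO and 1.81 and 2.71 with dTAG13. Oxld1 and Calm5, a calmodulin-like gene, also had no count in the treated ICM, where they were at least 27.8-fold and 13.6-fold lower, and both were present in every morula library. Rnf25, a ubiquitin ligase, had 1 library of the treated ICM at 0.04 FPKM and the other at 0, a ratio of DMSO to dTAG13 of 452 (95% counting interval 80.7 to 17900), and its morula levels of 3.23 to 8.01 FPKM overlapped between the treatments. Ciart, a circadian repressor, fell in the ICM from 17.5 and 17.2 to 0.22 and 0.53 FPKM and read 2.08 and 0.38 in morula DMSO and 5.38 and 4.62 in morula dTAG13.

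By the same rule for the other direction, Rgn, a calcium-binding lactonase, had no count in ICM DMSO and 3.25 and 3.39 FPKM in ICM dTAG13, at least 31.3-fold higher, and was present in all morula libraries at 5.99 to 13.5 FPKM. Agmat, an agmatinase, was at least 8.51-fold higher in the treated ICM, and its morula libraries read 9.69 to 17.6 FPKM with overlapping groups. Dnaic1, an axonemal dynein chain, rose in the ICM from 0.04 and 0 to 5.22 and 6.62 FPKM, a ratio of 70.7 (19.2 to 589), to about the lower end of the morula levels, which ran from 5.25 to 12.95. Hist1h2ad and Atg9a were the other two taken by this rule, but 68.3% of the 31-base words of the first occur in other genes, and the morula DMSO libraries of Atg9a read 26.9 and 5.4 FPKM, so its morula change rests on 1 library. Rgn, Agmat, Dnaic1 and Atg9a were expressed in untreated morulae and below 1 FPKM in the untreated ICM. A call needs a mean of at least 1 FPKM in a morula group, and the ranking favors ICM controls near 0. This pattern therefore follows largely from how the genes were chosen.

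Transcripts of earlier stages gave little to compare. Of 10 two-cell genes tested 1 was called, as positive (10.0%, against 7.7% of all genes tested): Zfp352, whose level stayed at or under 2.51 FPKM throughout. The list median was 1.31 as fitted and −0.25 with genes at 0 set to their bound. Of 14 oocyte transcripts Tle6 and Zp3 were positive (14.3%, against 7.7%). ICM levels of Tle6 fell from 15.8 and 14.6 to 3.5 and 3.27 FPKM, with morula levels between 2.77 and 3.87. Of 10 morula markers Cdx2 and Tfap2c were negative (20.0%, against 7.01%), and the median was −0.6.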

How the data were processed

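RNA-seq libraries were made from embryos with an unstranded full-length cDNA kit, and per the labels and the study's methods the authors used Trimmomatic 0.39 for trimming, STAR for alignment to GRCm38 and RSEM for gene quantification. The deposited tables give, for each library, expected counts, TPM and FPKM per gene, the latter scaled by the authors to length and library total. After rounding, the expected counts were fitted in edgeR 4.0.16 (quasi-likelihood, TMM, R 4.3.3) over genes that reached 10 counts in 2 or more libraries, with Benjamini-Hochberg adjustment over all genes tested. The stage difference came from 1 fit of 8 libraries with a treatment by stage term, and each stage was also fitted alone. Settings that could change the calls were tried in 23 alternatives, among them DESeq2 1.42.0 and limma 3.58.1. Fits were tested on simulated data, in which most differences at the fold threshold were missed, so a gene that was not called may still differ. The members and gene lists were chosen with earlier results of these data known.

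Named genes were the GABP subunits, the called member of each list with the most positive and the most negative interaction, the 5 largest called protein-coding genes in each direction with a mean of at least 10 FPKM in a group, up to 4 that changed in opposite directions at the stages, up to 6 that changed alike, and any EPI, PrE or TE marker. Others are said to be chosen after their values were seen, as are genes that complete a count. Replicates differed beyond sampling noise in all 4 groups. Folds of genes with no count in a group were bounded with a floor of 3 counts per library, which covers counting error only, as do 95% counting intervals. Of 55385 gene identifiers 55144 matched the annotation. The authors' own comparisons, peak and signal files were not used here.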

Additional observations from a re-analysis of the deposited data

Results flagged for a closer look

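The response to dTAG13 differed between morulae and the E4.5 ICM, by the test of the difference itself, for 1293 genes with a positive and 1177 with a negative interaction, and for 43 of the named genes. Groups of 2 libraries allow no test for a library far from the others. Among genes with a fitted value, the positive interactions on the log2 scale were Ciart 7.66, Rnf25 8.06, Faap20 7.11, Ulk4 5.15, Eras 4.04, Mrpl53 3.68, Nupr1 3.41, Obox6 3.26, Lyrm2 3.07, Rpf2 2.94, Rars2 2.66, Tle6 2.61, Primpol 2.08, Ndufa13 1.84, Cdc45 1.8, Ruvbl2 1.53, Ddb2 1.4, Rps27 1.37, Atp5h 1.18, Tet1 1.14 and Nid2 1.03. For genes with no count in the treated ICM, the fitted morula change minus the ICM change at its bound was 6.09 for Zfp352, 6.05 for Psma8, 5.29 for Slc50a1, 4.54 for Calm5 and 3.89 for Oxld1. The ICM part of these values is a bound and the morula part is a fit, so they are not bounds on the interaction.

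The negative interactions were Dnaic1 −6.49, Hist1h2ad −5.65, Atg9a −5.28, Krt7 −4.59, Gm14434 −4.13, Cebpb −3.73, Perp −2.97, Arg2 −2.76, Fancf −2.36, Cdx2 −2.2, Lrp2 −2.09, Tnfrsf9 −1.9, Aars2 −1.77, Dppa3 −1.52 and mt-Nd3 −1.52. Rgn and Agmat, with no count in the ICM controls, had values of −4.1 and −2.65 computed in the same way.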

How the results depend on the processing

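Of 46 recomputed counts of called genes 40 stayed within 1.5 times the reported ones. Fitting all 18 RNA-seq libraries gave 706 negative genes, a minimum of 5 FPKM gave 539 negative genes, and no fold threshold gave 2159 positive genes. Leaving out 1 library at a time gave 856 to 1767 positive and 757 to 1437 negative genes. DESeq2 called 1226 positive and 1110 negative genes. In no setting did a gene called in both settings change direction. Of 1125 recomputed values of the named genes 1072 kept direction and side of the threshold, 49 in 19 genes lost the call, and 4 changed sign: Gabpb1 at 0.01 with all 18 libraries and 0.26 without morula DMSO replicate 2 (range −0.3 to 0.26 over the libraries left out), and Trim11 at −0.12 without morula dTAG13 replicate 1 and −0.01 without ICM dTAG13 replicate 1 (range −0.12 to 0.51). The cause was not tested. Scaling by library totals moved the median of all genes by −0.12. The list medians of cytosolic ribosomal proteins (−0.15 to 0.14), DNA methylation enzymes (−0.18 to 0.03), glycolysis (−0.07 to 0.21), mitochondrial translation (−0.02 to 0.18) and two-cell genes (−0.31 to 2.45) crossed 0. A replicate block called 2276 genes, 1231 positive and 1045 negative, and shared 2203 with the reported calls. Same-numbered libraries did not deviate together (r = 0.0198 in morulae and −0.0255 in the ICM over 7902 genes). The labels name no pairing, and such correlations cannot exclude one. Depth and the scatter of morula replicates limit what can be read as unchanged in morulae, and thinning all libraries to the smallest gave 1153 positive and 1137 negative genes.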

Other observations

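Some called genes passed the test in morulae alone or in neither stage. Kdm4c, a histone demethylase, rose in morulae alone and had a positive interaction, and Abracl fell in morulae alone with a negative one. F3, the tissue factor gene, and 2610002M06Rik rose in the ICM yet had positive interactions, with a median log2 fold change of 2.28 in morulae that passed no test there and of 0.5 in the ICM. Fos, Amacr, Shisa5, Vim, Ogfr and Zfp13 fell in the ICM and had negative interactions, with a median log2 fold change of −0.42 in the ICM and −1.79 in morulae. Xlr3a and Gm2016 rose at both stages with positive interactions of 1.16 and 2.21. For 47 called genes neither stage passed on its own. These genes were chosen after their values were seen.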
